A study of Mus musculus with 6 samples.

Results

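The genes described here are 10 genes by which fat cells are recognised: Ucp1, Cidea, Adipoq, Cfd, Retn, Fabp4, Lpl, Cidec, Plin1 and Pparg. They were taken by gene symbol from the probes of the array, and 9 of the 10 had a named probe, each of them exactly 1, among 18507 named genes. Plin1, the coat protein of the fat droplet, had none, so it has no value. RNA came from the pylorus, the junction of stomach and gut, of mouse embryos at E18.5, late in gestation. Parents were heterozygous (Bapx1 CRE/+), and yolk sac DNA sorted their embryos by genotype. The tissue was the distal stomach with 1-2 mm of gut on each side of the pyloric narrowing. Total RNA of 3 embryos labelled Nkx3.2 knockout and of 3 littermates labelled wildtype was read on 6 one-colour CodeLink arrays, 1 embryo an array. Nkx3.2 and Bapx1 are names of 1 gene, a homeodomain factor of gut and skeletal mesenchyme, and the labels give no other allele and no treatment. The embryo codes give 3 litter pairs, each of 1 knockout and 1 wildtype embryo, numbered 1 to 3 below.

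White fat cells store triglyceride in a large droplet, and brown fat cells burn it to make heat. PPARG, a nuclear receptor, switches on the genes of both cell types, and UCP1 is the proton carrier that marks the brown one. The droplet is built and guarded by coat proteins and CIDE proteins, fed by lipoprotein lipase and fatty acid carriers, and the cell sends hormones such as adiponectin into the blood.

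Levels below are log2 normalized intensities, and differences are knockout minus wildtype on that scale. A spot is called near background where the scanner software marked it so. The probe for Nkx3-2 itself read 7.73, 8.02 and 7.79 on the knockout arrays of pairs 1, 2 and 3, and 7.47, 7.75 and 7.99 on the wildtype arrays. These ranges overlap, the difference was 0.11 (SE 0.19, n = 3 a group, limma adjusted p = 1.00), and the part of the gene that the probe reads is not known, so every direction below rests on the labels. Pair 1 was exported from the scanner software apart from pairs 2 and 3, and its median spot signal above background was 207 and 204, against 109 to 131 in pairs 2 and 3. Between 13.2% and 16.7% of gene probes were near background on an array. Gastrin, the hormone of the gastric antrum, read 10.74 to 11.83 (Gast), so the arrays carried the labelled tissue's marker. It was lower on every knockout array than on any wildtype array, with a difference of -0.74 (SE 0.21) that did not pass limma's adjusted test. Groups did not overlap, in either direction, for 4.04% of genes tested. Whether the tissue taken differed between the labels was not tested. P-values measure the spread between 3 embryos a group, and the number of arrays limits every value.

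The fat genes with the widest spread varied between arrays of the same label, and their groups overlapped. With 1 array an embryo, the embryo, the tissue taken and the array cannot be told apart. Ucp1 and Adipoq were low on knockout array 2, intermediate on both arrays of pair 1, and high on wildtype array 2 and on both arrays of pair 3. Cidea, Cfd and Fabp4 followed the same order over smaller ranges. Cidec, Lpl and Retn varied little, and Pparg differed between pair 1 and the other pairs. No member passed limma's test at an adjusted p of 0.05, 0 of 9, where 0% of the 16764 genes tested did. At an unadjusted p under 0.05 in this fit without a block, again 0 of the 9 members passed, against 1.13% of all genes tested. With the litter pair as a block only Ucp1 of the members did (limma unadjusted p = 0.020), against 4.53% of 16739 genes. That Ucp1 value rests on pairs 1 and 2.

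**Figure D1:**
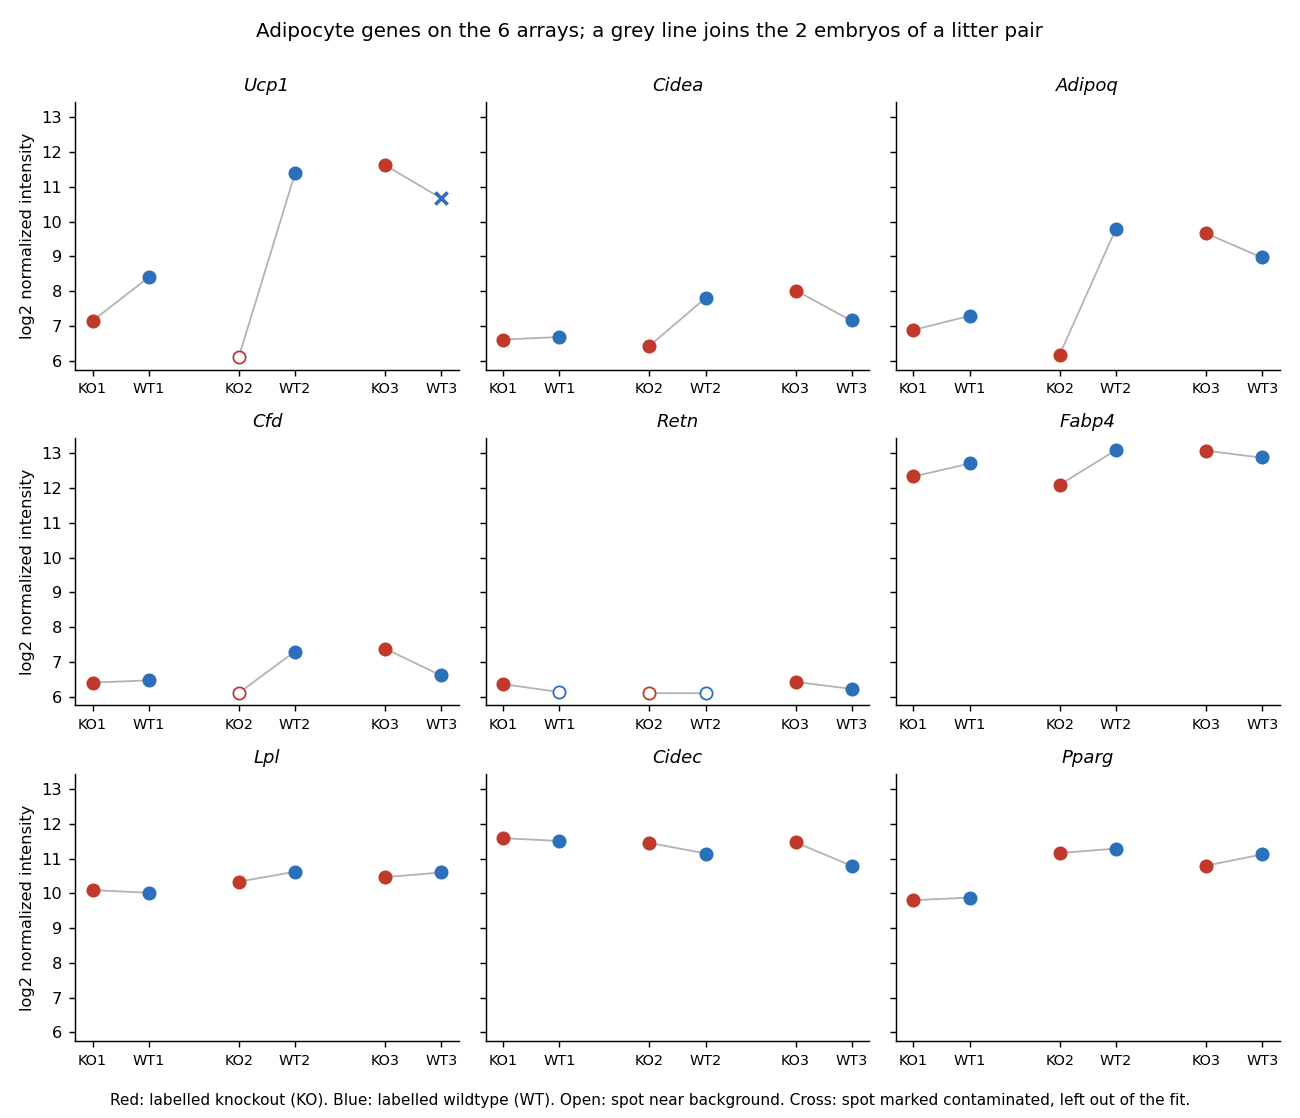
Log2 normalized intensity of the 9 measured adipocyte genes (vertical axis, the same in every panel) on the 6 arrays (horizontal axis), with a grey line joining the embryos of a litter pair. Red points are arrays labelled knockout, blue points arrays labelled wildtype, open points spots near background and the cross a spot marked contaminated. Ucp1 and Adipoq span 5.51 and 3.62 log2 units, and no member separates red from blue.

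The promoter sequences of Ucp1 and Adipoq, whose levels ran together across the embryos, and of Cidec, whose levels ran otherwise, are shown as the regulatory sequence beside these patterns. They are RefSeq sequence of build GRCm38.p6, 5′ to 3′ on the gene's strand, from 250 bases before the transcription start to 50 after it. Capitals mark matches, on either strand, to the letters TATAAA of the TATA box, to CCAAT of the CCAAT box, to TTGCNNAA, which resembles the sites bound by the C/EBP factors of fat cells, or to AGGTCA, the nuclear receptor hexamer. Cidec has a window for each of 2 starts.
Ucp1, chr8:83290098-83290397, + strand: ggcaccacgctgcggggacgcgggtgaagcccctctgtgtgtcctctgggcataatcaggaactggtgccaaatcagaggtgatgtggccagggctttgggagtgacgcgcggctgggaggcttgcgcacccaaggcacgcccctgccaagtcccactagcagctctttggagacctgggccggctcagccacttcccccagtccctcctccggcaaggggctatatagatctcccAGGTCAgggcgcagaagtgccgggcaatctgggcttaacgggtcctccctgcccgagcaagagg
Adipoq, chr16:23146286-23146585, + strand: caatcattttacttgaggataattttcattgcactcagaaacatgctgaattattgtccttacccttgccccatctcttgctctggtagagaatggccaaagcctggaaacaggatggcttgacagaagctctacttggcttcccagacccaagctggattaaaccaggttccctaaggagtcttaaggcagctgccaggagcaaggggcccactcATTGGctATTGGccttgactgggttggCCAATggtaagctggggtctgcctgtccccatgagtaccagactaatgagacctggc
Cidec, chr6:113434715-113435014, - strand: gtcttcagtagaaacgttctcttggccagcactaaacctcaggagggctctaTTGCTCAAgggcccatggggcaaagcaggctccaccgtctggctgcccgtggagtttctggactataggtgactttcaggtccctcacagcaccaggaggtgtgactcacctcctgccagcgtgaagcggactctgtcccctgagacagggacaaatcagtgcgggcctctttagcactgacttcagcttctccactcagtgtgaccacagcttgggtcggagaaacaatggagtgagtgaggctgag
Cidec, chr6:113435711-113436010, - strand: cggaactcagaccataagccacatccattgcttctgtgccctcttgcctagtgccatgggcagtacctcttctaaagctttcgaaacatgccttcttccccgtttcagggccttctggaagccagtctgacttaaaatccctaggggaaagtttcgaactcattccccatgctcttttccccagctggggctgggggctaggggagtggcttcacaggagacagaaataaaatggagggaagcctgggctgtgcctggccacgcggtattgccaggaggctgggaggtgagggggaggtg

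The Ucp1 window holds AGGTCA once, from position -14 relative to the start, and Adipoq holds CCAAT at positions -34, -27 and -7. The first Cidec window holds TTGCNNAA at position -198 and the second holds none of these letters. Of the 32851 windows in the table, 37.4% hold CCAAT, 16.3% AGGTCA, 13.6% TATAAA and 10.8% TTGCNNAA. The direct repeat AGGTCANAGGTCA, which contains AGGTCA and is the form bound by PPARG with its partner RXR, is in 0.0396% of all windows and in none of the 10 windows found for 7 of the genes. These matches share no base with each other in the printed windows, and they describe letters only. The motifs and genes were chosen with the levels known.

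Ucp1 had the widest range of the members. It read 7.15 on knockout and 8.41 on wildtype array 1, 6.11 on knockout and 11.40 on wildtype array 2, and 11.62 on knockout array 3. Its spot on wildtype array 3 was marked contaminated and left out of the fit, and it read 10.67 when kept. Knockout array 2 was at background while its wildtype littermate was among the highest, and the order within pair 3 was the opposite with the marked spot kept. In signal above background the 5 unmarked values were 116, 438, 19.2, 1992 and 2440 in the same order, the third of them near background. The range was 5.51 log2 units on the normalized scale, and because the lowest array was near background no fold against it is given. The groups overlapped, and the difference was -1.61 (SE 1.77, n = 3 and 2, limma adjusted p = 1.00).

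Within pair 1, Ucp1 was 2.40-fold higher in the wildtype embryo. In pair 2 the difference was -5.29, with the knockout spot near background. In pair 3, with the contaminated spot kept, the knockout embryo was higher by 0.95 on the log2 scale, or 1.94-fold. Blocking on litter pair gave a difference of -3.28 (SE 0.95, limma unadjusted p = 0.020, adjusted p = 1.00). This difference rests on pairs 1 and 2 because the wildtype spot of pair 3 is missing. With that spot kept and no block it was -1.86. In bulk tissue a smaller number of fat cells and less RNA per fat cell cannot be told apart, and this holds for each member.

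Cidea, a droplet protein that marks brown fat in mice, read 6.60 and 6.68 in pair 1, 6.42 and 7.79 in pair 2, and 8.02 and 7.16 in pair 3, knockout first. Knockout array 2 was again the lowest, knockout array 3 the highest, and the labels overlapped. The difference was -0.20 (SE 0.48, limma adjusted p = 1.00). Its probe was above the 95th percentile of the negative control spots on 4 of the 6 arrays, and not on knockout array 2 or wildtype array 3. The differences within pairs were -0.08, -1.37 and 0.85, so the label's direction turned between pairs 2 and 3.

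Among the secreted products, Adipoq encodes adiponectin, a hormone made mainly by fat cells. It read 6.88 and 7.29 in pair 1, 6.18 and 9.79 in pair 2, and 9.66 and 8.97 in pair 3, knockout first. Wildtype array 2 was highest and its knockout littermate lowest, and the labels overlapped. Above local background the signals were 80.0, 138, 22.5, 598, 586 and 363 on the same arrays, and all but that of knockout array 2 exceeded the negative controls' 95th percentile, so no fold against that array is given. The difference was -1.11 (SE 1.00, n = 3 a group, limma adjusted p = 1.00), and -0.41, -3.62 and 0.69 within pairs 1, 2 and 3.

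Cfd encodes adipsin, the complement protease named for its release from fat. It read 6.40 and 6.47 in pair 1, 6.11 and 7.29 in pair 2, and 7.37 and 6.62 in pair 3, knockout first, with the spot of knockout array 2 near background. Its array order was that of Cidea, although its signal passed the 95th percentile of the negative controls on 0 of the 6 arrays. The difference was -0.17 (SE 0.38, limma adjusted p = 1.00). Retn, the mouse fat hormone resistin, also passed it on 0 of 6 and was near background on 3 arrays. Its levels lay between 6.10 and 6.42 and its difference was 0.14 (SE 0.15, adjusted p = 1.00). For both, the depth of signal allows no firmer statement. The leptin probe (Lep) failed the filter on dim probes and was not tested.

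Fabp4, Lpl and Cidec were above the negative controls on every array. Fabp4, a fatty acid carrier of fat cells that capillary endothelium and macrophages also make, read 12.33 and 12.71 in pair 1, 12.10 and 13.08 in pair 2, and 13.06 and 12.88 in pair 3, knockout first. Knockout array 2 was lowest and wildtype array 2 highest, 1.98-fold apart, the same extremes as for Adipoq. The difference was -0.40 (SE 0.27, limma adjusted p = 1.00), and only pair 3 had the knockout embryo higher, by 0.18. Of the endothelial markers, 10 of 10 tested were higher on the knockout arrays with a median of 0.16, beside 8071 of 16764 genes in all, and 0 of them passed the adjusted test. Of 9 macrophage markers 6 were higher, with a median of 0.02. The part of either cell type in the Fabp4 values was not tested.

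Lpl encodes lipoprotein lipase, which frees fatty acids from blood lipoproteins for fat, heart and muscle. It read 10.10 and 10.02 in pair 1, 10.34 and 10.62 in pair 2, and 10.46 and 10.61 in pair 3, knockout first. Its arrays lay within 0.60 log2 units, and the difference was -0.11 (SE 0.22, limma adjusted p = 1.00). Knockout array 2, lowest for Ucp1, was in the middle of the Lpl range.

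Cidec, the white fat relative of Cidea that lets droplets fuse, behaved unlike Cidea. It read 11.59 and 11.51 in pair 1, 11.45 and 11.15 in pair 2, and 11.46 and 10.80 in pair 3, knockout first. Wildtype arrays 2 and 3 were the lowest, and the groups overlapped only because wildtype array 1 lay between the knockout arrays. The difference was 0.35 (SE 0.21, n = 3 a group, limma adjusted p = 1.00), and 0.08, 0.31 and 0.67 within pairs 1, 2 and 3. With the litter pair as a block it was 0.35 with an SE of 0.15 and again an adjusted p of 1.00. A block left 0 genes past the adjusted threshold, while 4.53% of 16739 genes reached an unadjusted p under 0.05.

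The low arrays of Cidec were also those of intestinal epithelium. Wildtype arrays 2 and 3 were the lowest 2 of 6 for Cidec, 1 of 8 members with a value on every array, and for 11.9% of the 15661 genes with 6 values. They were so for 6 of 9 intestinal markers, Anpep, Apoa4, Cdx1, Mep1a, Mep1b and Vil1. The level of that list, each gene centred on its mean over the arrays and then averaged, was 0.19 and 0.36 in pair 1, 0.33 and -0.62 in pair 2, and 0.24 and -0.50 in pair 3, knockout first, and no tested marker was near background. Mep1a, an intestinal protease subunit, read 8.63 on wildtype array 2 and 9.26 on wildtype array 3 against 10.18 to 11.12 on the others. Dgat1 and Dgat2, the enzymes of the last step of triglyceride synthesis, Plin3, a droplet coat protein, and Cideb, the CIDE protein of liver and gut, differed by 0.56 (SE 0.35), 0.57 (SE 0.51), 0.59 (SE 0.91) and 0.39 (SE 0.19), all at an adjusted p of 1.00, with the same low arrays. These arrays were the lowest 2 for 5 of the 21 triglyceride genes with 6 values (23.8%), against 11.9% of all genes. Of the 18 relatives of the members with 6 values, Cideb alone had them lowest (5.56%). The part of intestinal epithelium in the Cidec values was not tested.

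Pparg was the regulator among the members. It read 9.81 and 9.88 in pair 1, 11.16 and 11.29 in pair 2, and 10.80 and 11.13 in pair 3, knockout first. Pairs 2 and 3 averaged 1.25 log2 units above pair 1, a size reached or exceeded by few genes (percentile 96.1 of the genes tested), and the littermates lay within 0.33 of each other. The gap follows the export, and litter and export cannot be told apart here because the separate export holds only pair 1. The knockout embryo was lower in all pairs, with differences of -0.07, -0.12 and -0.33, and the limma difference was -0.18 (SE 0.48, adjusted p = 1.00). With the pair as a block the SE was 0.12, and within pairs 2 and 3 alone the difference was -0.23.

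Of the 8 members with values in all pairs, Pparg, 1 of 8, was lower in the knockout in each pair, as were 11.5% of 15661 genes. Cidec and Retn, 2 of 8, were higher in each pair, as were again 11.5%. The groups did not overlap in 0 of 9 members, against 4.04% of genes tested. In all, 2 members were higher and 7 lower on the knockout arrays, with a median difference of -0.18 beside -0.01 over all genes. The median was -0.07 in pair 1, -0.98 in pair 2 and 0.43 in pair 3 (SD 0.72 over the pairs). Without wildtype array 2 the median was 0.09 and without knockout array 3 it was -0.61, so the sign and size of the summary rest on single embryos.

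**Figure D2:**
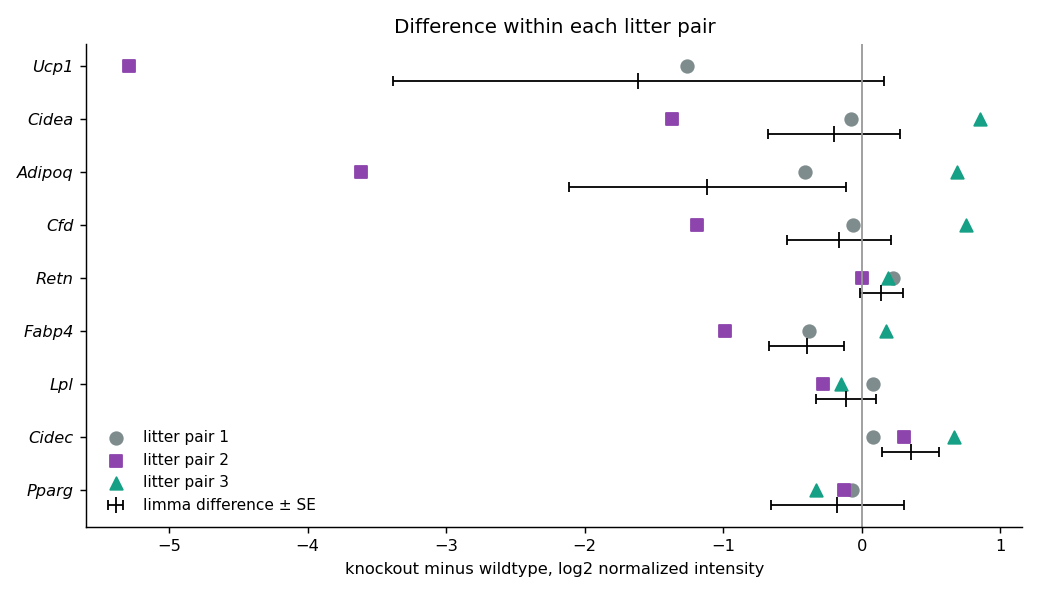
Knockout minus wildtype in log2 normalized intensity (horizontal axis) for each measured adipocyte gene (vertical axis), within litter pair 1 (circles), 2 (squares) and 3 (triangles), with the limma difference and its SE in black. For Ucp1, Cidea, Adipoq, Cfd and Fabp4 pair 2 lies below 0, at -5.29, -1.37, -3.62, -1.19 and -0.98, and pair 3, where measured, above 0.

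The spread between embryos of the same label differed widely among the members. The pooled SD within a label was 2.68 for Ucp1 and 1.58 for Adipoq, which placed them at percentiles 99.96 and 99.8 of the genes tested. Pparg with 0.74 and Cidea with 0.73 lay near the 95th percentile of all genes, 0.72. Cfd had 0.56 and Fabp4 0.38. Lpl with 0.28, Cidec with 0.26 and Retn with 0.13 lay near or below the median of all genes, 0.28.

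**Figure D3:**
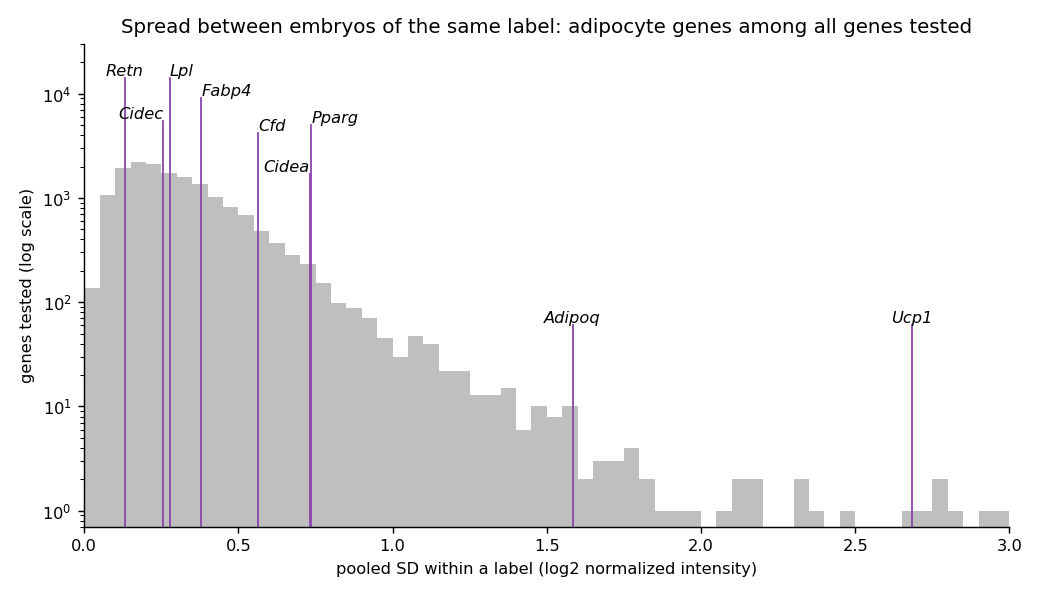
Distribution of the pooled SD within a label (horizontal axis, log2 normalized intensity) over the genes tested (vertical axis, number of genes on a log scale; the last bar holds any larger values), with a line for each measured adipocyte gene. Ucp1 at 2.68 and Adipoq at 1.58 lie in the far tail, and Lpl, Cidec and Retn in the bulk.

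Several members ranked the arrays alike. Knockout array 2 was lowest, followed by knockout array 1 and wildtype array 1, with the other 3 arrays above, for Adipoq, Cfd, Cidea and Fabp4, 4 of the 8 members with 6 values, an order that 0.556% of 15661 genes showed. Ucp1 kept this order on its 5 measured arrays. Of these, Cfd was above the negative controls on no array, so its ranks carry little. Among the 6 members above them on at least 1 array and with 6 values, 3 showed the order. The order was picked after the members' values were seen, so its count is a description. Of the 16 brown fat genes with 6 values Cox8b and Zic1, the latter near background on 3 arrays, showed it, and of the lists of adipogenic regulators, triglyceride metabolism, uptake, adipokines and relatives none did.

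Skeletal muscle markers shared the low arrays. The order held for 7 of 12 of them, Acta1, Myh3, Myh8, Myl1, Mylpf, Tnnc2 and Tnnt3, and in 10 of 12 the lowest 3 arrays were those named, in any order, as in 15% of the 15661 genes. The same centred level of the muscle list was -0.63 and -0.34 in pair 1, -0.99 and 0.39 in pair 2, and 0.32 and 1.25 in pair 3, knockout first. Mylpf, a myosin light chain of fast muscle, read 9.83 and 10.84, 8.81 and 11.40, and 11.45 and 12.49 in the same order. Fat and muscle differed at the top: wildtype array 3 was highest for all 7 of these muscle genes, while Adipoq, Cidea, Cfd and Fabp4 peaked on wildtype array 2 or knockout array 3. Of the muscle list 11 of 12 were lower on the knockout arrays with a median of -0.79. In 9 of 12 the knockout embryo was lower in every pair, as in 11.5% of 15661 genes, whereas Adipoq, Cidea, Cfd and Fabp4 were higher in the knockout of pair 3. With or without the litter pair as a block, 0 of the muscle list passed the adjusted test. Of the muscle markers only Myog, the regulator of muscle differentiation, had spots near background, on 3 arrays. The part of muscle or of other adhering tissue in the fat values was not tested.

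**Figure D4:**
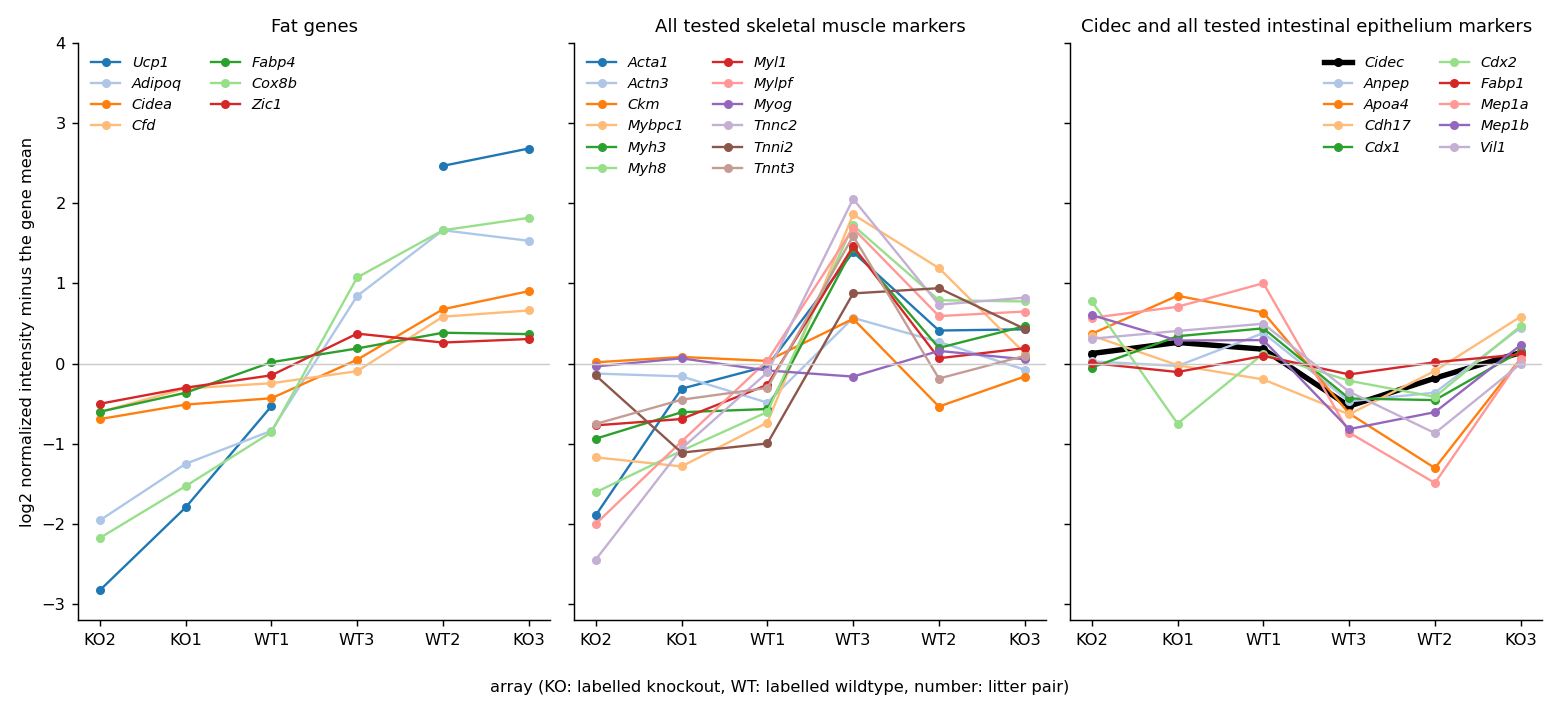
Log2 normalized intensity minus each gene's mean over its arrays (vertical axis) on the 6 arrays, ordered by the level of the fat genes (horizontal axis), for fat genes chosen after their values were seen, for all tested skeletal muscle markers, and for Cidec with all tested intestinal epithelium markers. Fat genes and most muscle markers are low on KO2, KO1 and WT1, muscle peaks on WT3, and Cidec is low on WT3 and WT2 as most intestinal markers are.

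The genes whose levels across the arrays were most like the mean of the 6 members not near background on any array (Adipoq, Fabp4, Cidec, Cidea, Pparg and Lpl) were sought among 3795 genes that spanned at least 1 log2 unit. Cox8b had the highest Pearson correlation, 0.972 over 6 arrays. It encodes a cytochrome oxidase subunit of heart, muscle and brown fat, and read 7.62 and 8.29 in pair 1, 6.97 and 10.81 in pair 2, and 10.96 and 10.22 in pair 3, knockout first. It repeated the array order of Adipoq's low arrays and Ucp1's high one, with a pooled SD of 1.78. Ptgds (0.970), 1810065E05Rik (0.969), Thsd7a (0.944), Cldn3 (0.940), Sparc (0.936), Plekhd1 (0.928) and Bnip5 (0.921) came next, spanning smaller ranges. These arrays share litters and exports, so the correlations describe 6 values each.

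Most other brown fat genes did not follow Ucp1. Among 18 brown fat genes tested 10 were higher and 8 lower, with a median of 0.02, and 0 passed. Cox7a1, a cytochrome oxidase subunit of muscle and brown fat, read 10.12 to 10.72, and Elovl3, a fatty acid elongase of activated brown fat, 7.34 to 7.81. Cpt1b, the muscle-type carnitine palmitoyltransferase, read 6.49 to 6.67. On wildtype array 2 and both arrays of pair 3 it read below Cfd, which passed the negative controls on no array. Its narrow range there carries little. Dio2, the deiodinase that activates thyroid hormone in brown fat, read 7.91 to 8.66 and was lowest on knockout array 2 but highest on knockout array 1. Zic1, a transcription factor used as a brown fat marker, read 6.18 and 6.34, 5.98 and 6.75, and 6.79 and 6.86 in the 3 pairs, knockout first, with 3 arrays near background. Its difference was -0.33 (SE 0.26, adjusted p = 1.00). Acaa2, a mitochondrial fatty acid oxidation enzyme, differed by 0.54 (SE 0.43, adjusted p = 1.00). It was lowest on wildtype arrays 2 and 3, as were 3 of the 16 brown fat genes with 6 values (18.8%) and 11.9% of all genes.

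Of 20 adipogenic regulators 9 were higher and 11 lower, with a median of -0.03 and 0 past the adjusted test. Gata3, a factor that holds back fat cell formation, read 7.69, 7.58 and 7.47 on the knockout and 7.77, 8.24 and 7.99 on the wildtype arrays. These ranges did not overlap, and the difference of -0.42 (SE 0.17) had an adjusted p of 1.00. Groups did not overlap for 1 of the 20 regulators, beside 4.04% of all genes tested. Nr1h3, the lipid sensor LXR alpha, differed by 0.55 (SE 0.25) and Cebpa, a partner of PPARG, by 0.39 (SE 0.24), both at an adjusted p of 1.00. Both were lowest on wildtype arrays 2 and 3, as were 3 of the 19 regulators with 6 values (15.8%) and 11.9% of all genes. Prdm16, which directs brown fat fate, read 6.92 to 7.43 and was highest on knockout array 2.

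In triglyceride metabolism 15 of 24 genes were higher and 9 lower, with a median of 0.03. G0s2, an inhibitor of the lipase ATGL, differed by -0.32 (SE 0.20), and Plin2, a droplet coat protein of many tissues, by 0.56 (SE 0.42), each at an adjusted p of 1.00. Thrsp, a lipogenic protein of fat and liver, read 6.81 and 6.78, 6.09 and 7.05, and 7.59 and 6.90 in the 3 pairs, knockout first. Its extremes were those of Ucp1, on knockout arrays 2 and 3, but 1 of its spots was near background. Of the 21 genes of this list with 6 values, 0 showed the array order of Adipoq. In uptake 7 of 14 were higher, and Aqp7, the glycerol channel of fat cells, was the largest by test statistic at 0.65 (SE 0.26, adjusted p = 1.00), ahead of Angptl8, an inhibitor of lipoprotein lipase, at 0.33 (SE 0.17) and Slc27a4, a fatty acid transporter, at 0.54 (SE 0.32). Among adipokines and receptors 5 of 13 were higher, and Cmklr1, the chemerin receptor, differed by -0.33 (SE 0.18) and Rarres2, chemerin, by -0.21 (SE 0.21).

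The relatives of the members gave 12 of 19 higher and 7 lower with a median of 0.01. Fabp1, the liver and gut carrier, read 14.82 to 15.07, and Fabp9 and Retnla differed by -0.13 (SE 0.14) and 0.14 (SE 0.16). The signal of Retnla did not pass the 95th percentile of the negative controls on any array, and Fabp9 read only 6.37 to 6.62. Of 11 preadipocyte and mesenchymal markers 7 were higher, with a median of 0.03. Among them Cd24a differed by -0.60 (SE 0.29), Dpp4 by 0.57 (SE 0.29) and Ly6a, the stem cell antigen, by 0.27 (SE 0.26). In none of these lists did a gene pass the adjusted test, and the medians of the 7 lists of fat genes, relatives and progenitors lay between -0.06 and 0.03.

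The remaining cell types gave other array patterns. Liver markers were high on knockout array 1, with a centred level of 2.16 against -0.73 to -0.21 on the other arrays, and exocrine pancreas markers were high in pair 1, at 1.04 and 1.53 against -0.82 to -0.43. The averaged levels of the smooth muscle and mesothelium lists lay between -0.24 and 0.18 on every array. Of 12 gastric epithelial markers 8 were lower on the knockout arrays with a median of -0.36, and 0 passed the adjusted test. In none of these lists did a gene show the array order of Adipoq, and their part in the values of the fat genes was not tested.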

How the data were processed

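Per the file headers, the authors exported from the CodeLink software, for each spot, the mean intensity and the local background's median intensity, both without normalization. The deposited value table holds intensity above background on a median-normalized scale, which the authors' expression reports state for pair 1. Genome build and further steps are not given in the sources used here. Intensities were corrected with limma's normexp (offset 50), quantile normalized and taken to log2, and no deposited value was on a log2 scale. Spots marked masked, irregular, contaminated or with the unexplained mark P were set missing. A probe was tested if not near background on at least 3 of 6 arrays, with at least 2 values per group, which left 16764 genes by their brightest probe. Of 34967 gene probes 22114 had 1 symbol, through the platform annotation and a RefSeq table, 681 had several and 12172 are unnamed here. Cfd was named by its RefSeq accession.

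Groups were compared with limma 3.58.1 (R 4.3.3; lmFit, eBayes, no block) and Benjamini-Hochberg adjustment. The code was tested on simulated arrays with the same spread for every gene, smaller than the median here, and no litter or export effect. That run cannot show whether differences of the members could be called. Littermates were taken as paired by the animal codes alone. Deviations of littermate arrays from their group means correlated at 0.784, 0.409 and 0.576 in pairs 1, 2 and 3. Because pair 1 was exported apart, a shift of that export would also raise these values, so they cannot tell litter from export. Named genes are the members, the 3 genes of each other list with the largest moderated t, the 8 genes most like the members and Nkx3-2. Those of lists that no result turned on are given as counts, 1 named gene is not reported here, and other genes were named after their values were seen. The members and lists were chosen with earlier results of these data known. Alternatives covered blocks, scaling, offset, filters, the deposited values and left-out arrays and pairs.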

Additional observations from a re-analysis of the deposited data

How the results depend on the processing

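The count of genes past the adjusted threshold was 0 under every alternative run, with the litter pair or the export as a block, other scaling, offsets and filters, the deposited values, and each array or pair left out. The pair block moved no call. The members' median difference, -0.18, ran from -0.29 to -0.17 under the alternatives that kept all arrays, from -0.61 to 0.085 with 1 array left out, and was 0.17 without pair 2 and -0.65 without pair 3. Without pair 2 the differences of Adipoq, Cfd and Cidea turned to 0.14, 0.35 and 0.39. With 1 array left out Cfd ran from -0.54 to 0.094, Cidea from -0.70 to 0.10 and Pparg from -0.62 to 0.21, and the cause was not tested. Ucp1 ran from -3.28 without knockout array 3 to -0.52 without knockout array 2, Adipoq from -2.16 to -0.41 and Fabp4 from -0.68 to -0.19 without the same arrays. Cidec ran from 0.18 without wildtype array 3 to 0.53 without wildtype array 1, Lpl from -0.31 without wildtype array 1 to -0.013 without wildtype array 2, and Retn from 0.11 without wildtype array 2 to 0.24 without knockout array 2. With fewer arrays, or with a filter on all 6, Ucp1, Retn and in part Cfd had no value in some of these fits. The signal over the negative controls limits Cfd, Retn and, on knockout array 2, Ucp1, Adipoq and Cidea, the last also on wildtype array 3. The authors' value table and their per-sample values gave equal differences, which were larger than those reported for Adipoq (-1.43), Ucp1 (-2.11), Cfd (-0.33), Cidea (-0.32), Cidec (0.46) and Retn (0.30), and smaller for Fabp4 (-0.27), Lpl (-0.05) and Pparg (-0.11), none past the threshold.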

Other observations

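Of the 87 genes with the array order shared by Adipoq, Cfd, Cidea and Fabp4, 14 spanned at least 2 log2 units, and 7 of these 14 were in the skeletal muscle list. The other 7 were Cox8b, Adipoq, Ptgds, Myoz2, Atp1b4, Atp2a1 and Sln, named after their values were seen. Myoz2, a sarcomere protein, spanned 2.81 log2 units, Atp2a1, the calcium pump of fast muscle, 2.29, and Sln, its small regulator sarcolipin, 2.25, all highest on wildtype array 3. Mrap, an accessory protein of the ACTH receptor present in fat cells, showed the order over 1.00 log2 unit, with 6.87 and 6.90 in pair 1, 6.65 and 7.65 in pair 2, and 7.57 and 6.96 in pair 3, knockout first. Car3, a carbonic anhydrase of muscle and fat, spanned 1.14.

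Slc2a4, the insulin-responsive glucose transporter of fat and muscle, had one of the smallest spreads on the array, a pooled SD of 0.02 within a label (percentile 0.07 of genes tested). It read 7.58, 7.62 and 7.61 on the knockout arrays and 7.75, 7.78 and 7.77 on the wildtype arrays, so every knockout value lay below every wildtype value. The difference was -0.16 and limma's moderated SE, which borrows from all genes, was 0.13, with an adjusted p of 1.00. Groups did not overlap for 1 of the 14 uptake genes tested, beside 4.04% of all genes tested.

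An unnamed probe made from an expressed sequence tag that its description likens to rat perilipin read 3.97, 22.1, 22.2, 26.8, 24.1 and 21.3 above local background on knockout and wildtype arrays of pairs 1, 2 and 3 in turn, and both arrays of pair 1 were near background. None of these signals passed the 95th percentile of the negative controls on its array. Retnlg, a relative of resistin, read 9.41 and 8.70 in pair 1 against 7.73 to 8.07 in the other pairs.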
